A study of Homo sapiens with 4 samples.

Results

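The subunits of respiratory complex I encoded in the nucleus were taken from the table as the protein-coding rows whose symbol is NDUF followed by the letter A, B, C, S or V and a digit. The rule names 39 of the 58037 rows, and assembly factors (NDUFAF genes) stand outside it. The cells are K562, a human erythroleukaemia line, and total RNA was sequenced from 4 libraries in 2 groups. The 2 knockdown libraries came from cells infected with a CRISPR lentivirus against DROSHA, and the 2 control libraries from cells infected with a non-specific CRISPR lentivirus. Both groups were selected with puromycin at 2.5 ng/μl and used at passages 25 to 30, and the labels do not say whether either population was cloned or whether the libraries of a group came from separate infections. P-values therefore rest on a spread between libraries of a group that may be technical only.

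Complex I oxidises NADH, passes the electrons through a flavin and a chain of iron-sulphur clusters to ubiquinone, and pumps protons across the inner mitochondrial membrane. Its peripheral arm consists of an N module, where NADH is oxidised, and a Q module, where ubiquinone is reduced, and its membrane arm pumps the protons. The core subunits are shared with bacteria, the accessory subunits surround them, and the mitochondrial genome encodes the remaining core subunits of the membrane arm. DROSHA is the nuclear ribonuclease that crops microRNA hairpins out of their primary transcripts.

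At least 1 member carries annotated microRNA hairpins, and the introns of the other members were not searched for them. NDUFS8, an iron-sulphur core subunit of the Q module, lies at chr11:68030617-68036644 on the plus strand of GRCh38. The hairpins MIR7113 and MIR4691 lie on the same strand in intron 3 and intron 5 of its principal transcript. Their mature microRNAs are shown because the hairpins lie inside a member. Whether either hairpin is cropped by DROSHA was not tested. Capitals mark the seed, bases 2 to 8, and the sequences are those of RefSeq on GRCh38.p14.
hsa-miR-7113-5p: uCCAGGGAgacagugugugag
hsa-miR-7113-3p: cCUCCCUGcccgccucucugcag
hsa-miR-4691-5p: gUCCUCCAggccaugagcugcgg
The 3 seeds differ from one another. Levels of the hairpins and of mature microRNAs were not analysed here.

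A second link to microRNAs is NDUFA4, a protein first assigned to complex I and later placed in complex IV. The microRNA miR-147b has been described as a repressor of NDUFA4. Its seed has 1 complementary site, CCGCACA, in the 3′ UTR of NDUFA4, starting at base 56 of 1685, and none in the 3′ UTRs of the other 38 members. Among 11384 tested protein-coding genes, 2.36% hold these letters in the 3′ UTR. Capitals mark the seed in the microRNA and the matching bases in the transcript, which is written as DNA.
hsa-miR-147b-3p: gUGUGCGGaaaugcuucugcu
NDUFA4 3′ UTR: gaagccacatCCGCACAattttccact
NDUFA4 was not called higher in knockdown cells: its log2 fold change in the authors' deposited table was -0.19, with an adjusted p of 0.882. The host transcript of miR-147b, C15orf48, was listed in the authors' deposited table with a mean of 1.58 normalised reads. The whole site for the seed of miR-210, ACGCACA, was found in the 3′ UTR of 0 members and of 2.58% of the tested protein-coding genes. A count of 0 among 39 members is near that share, and 3′ UTR length was not allowed for with either microRNA. Shorter matches were not searched. The NDUFA4 window above holds CGCACA, which is that site without its first base, because the seeds of miR-210 and miR-147b differ only in their last base.

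The authors deposited 1 table with a mean of normalised reads over the 4 libraries, an adjusted p and a log2 fold change for each gene. The fold change carries no stated direction; the negative value of DROSHA was taken to mean knockdown over control. The means are stored to 15 significant digits, which allowed the whole reads of each library to be worked out for 13516 of the 14231 tested genes. The authors' size factors came out as 1.09 and 0.813 for the knockdown libraries and 1.23 and 0.918 for the control libraries. The libraries could not be tied to replicate numbers and are called the deeper and the shallower library of their group. DROSHA had 2734 and 2770 normalised reads in the deeper and shallower knockdown libraries, against 6107 and 6077 in the deeper and shallower control libraries. Its log2 fold change in the authors' deposited table was -1.15, with an adjusted p of 8.11e-14. The recovered tested genes held between 17715542 and 26722525 reads per library. The erythroid markers GATA1, TAL1 and KLF1 had means of 4282, 7444 and 5074 normalised reads in the authors' deposited table, while CDH5 (endothelial) and MS4A1 (B cell) were listed at 0. EPCAM, an epithelial marker, had a mean of 2755 and a log2 fold change of 0.06 in the authors' deposited table.

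No complex I subunit passed the authors' test, and most members had slightly lower levels in knockdown cells. Of the 39 members, 38 were tested, and 0 had an adjusted p under 0.05 in the authors' deposited table, against a background of 0.351% of the 14231 tested genes (0.0211% lower and 0.33% higher). The log2 fold change was below 0 for 34 of the 38, or 89.5%, against 54.9% of all tested genes and 58.2% of tested protein-coding genes. The median over the members was -0.17, against -0.03 over all tested genes and -0.04 over the protein-coding ones. At an unadjusted p under 0.05, worked back from the authors' adjusted values, there were 6 members, all lower, against a background of 6.8% in either direction and 3.2% lower. With limma on the recovered library values, 0 of 37 members had an adjusted p under 0.05, against a background of 0.244%, and 8 had an unadjusted p under 0.05, all lower, against 10.0% in either direction and 4.37% lower. Without the readthrough row and the NDUFA4 pair, 32 of 36 tested members were below 0 and 5 had an unadjusted p under 0.05 worked back from the authors' values. With limma 7 of the remaining 35 had an unadjusted p under 0.05. Members share a library and a scaling, so their common sign is not 38 separate observations. In a bulk sample, fewer cells of a type and less RNA per cell cannot be told apart.

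The recovered reads show how the low side was spread over the single libraries. The search required them to return the authors' fold change, so they and the limma values are no second measurement of it. Both knockdown libraries were below both control libraries for 20 of the 37 recovered members, against a background of 22.6% of 13516 genes. Both were above for 0 members, against 19.0%, and the groups overlapped for 17. The share apart on the low side was 24.4% of protein-coding genes and 27.6% of those within the members' range of means. Below 1000 bases of principal transcript it was 34.5% of protein-coding genes, against 11 of 21 members. Without the readthrough row and the NDUFA4 pair it was 18 of 35 members. Each library's value was set against the gene's own mean over the 4 libraries on the log2 scale. The median over the members was -0.11 in the deeper and -0.06 in the shallower knockdown library, against 0.04 in the deeper and 0.14 in the shallower control library. Over all recovered genes the corresponding medians lay between -0.02 and 0.01. The libraries of a group also differed from each other: the median size of that difference over the members was 0.20 between the knockdown libraries and 0.10 between the control libraries. The difference between the groups had a median size of 0.18 over the members. Over all recovered genes the median sizes were 0.17 between the knockdown libraries, 0.17 between the control libraries and 0.15 between the groups. The difference between the groups was larger than both within-group differences for 14 of 37 members, against 3791 of all 13516 recovered genes.

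**Figure D1:**
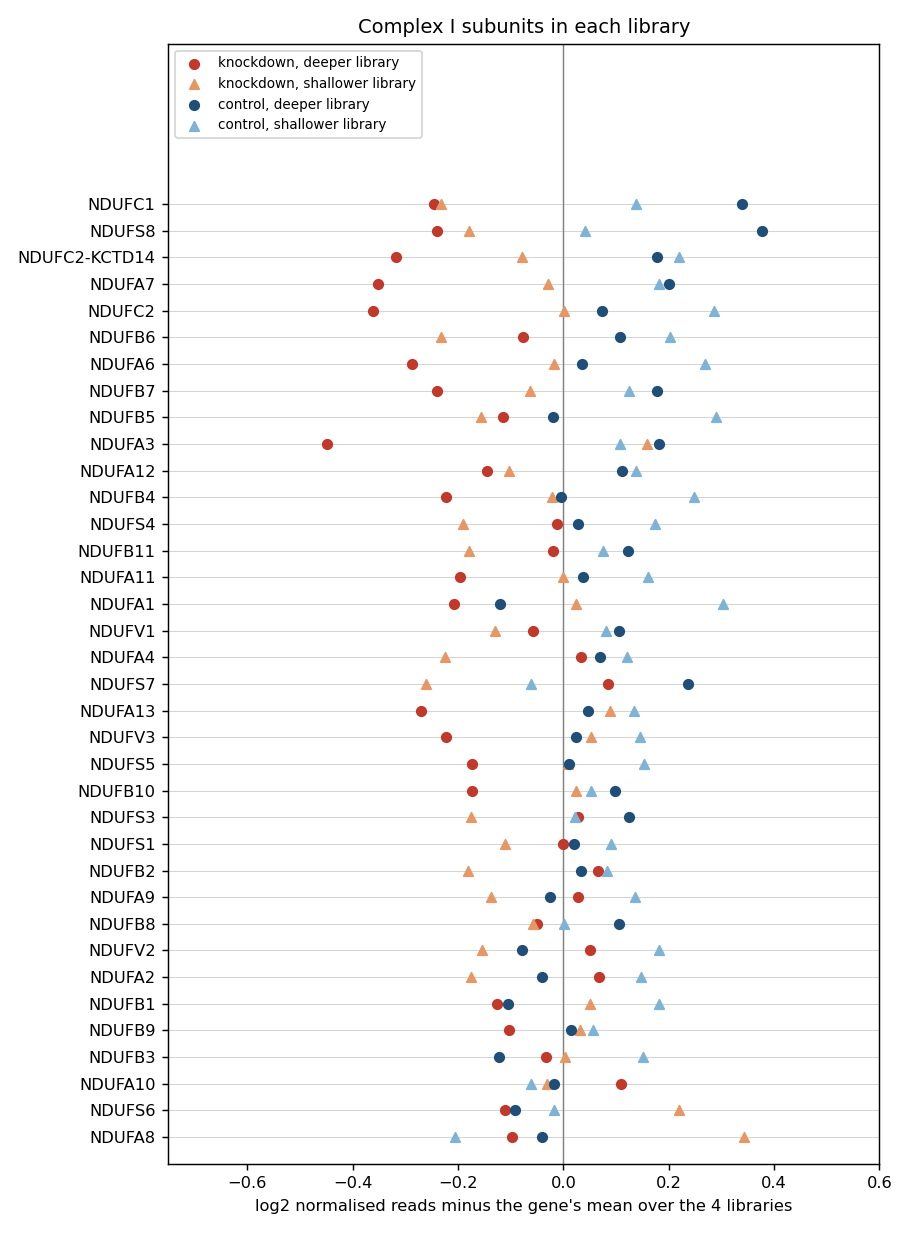
Normalised reads of 36 recovered complex I members in each library, as log2 minus the gene's mean over the 4 libraries (x axis), 1 row per member ordered by the authors' log2 fold change. Knockdown libraries are red and orange and control libraries dark and light blue; in 20 rows both knockdown points lie left of both control points, and in 0 rows both lie right of them.

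NDUFC1, an accessory subunit of the proximal membrane arm, had the smallest adjusted p and the lowest log2 fold change of the members. It had 2154 and 2175 normalised reads in the knockdown libraries, against 3228 and 2812 in the control libraries. Both knockdown libraries were low and nearly equal, and the groups did not overlap. The means were 2165 ± 14.6 in knockdown and 3020 ± 295 in control cells (SD, n = 2 each), a difference of the means of -28.3%. The log2 fold change in the authors' deposited table was -0.48, with an adjusted p of 0.163 (DESeq2), which misses the threshold of 0.05. With limma it was -0.48 ± 0.13 (SE), with an adjusted p of 0.217.

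NDUFS8, the host of both hairpins, came next. It had 3507 and 3656 normalised reads in the knockdown libraries, against 5378 and 4262 in the control libraries. The groups did not overlap, and the control libraries differed from each other by more than the knockdown libraries did. The log2 fold change in the authors' deposited table was -0.43, with an adjusted p of 0.361. With limma the NDUFS8 value was -0.42, and -0.25 without the deeper control library. NDUFS8 was thus not called higher in cells with less DROSHA.

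NDUFC2 is another accessory subunit of the proximal membrane arm, and NDUFC2-KCTD14 is a readthrough row that joins it to its neighbour KCTD14. The readthrough row shares 431 exonic bases with NDUFC2 and had a mean 49.7% of that of NDUFC2, while KCTD14 itself had a mean of 4.60 normalised reads. NDUFC2-KCTD14 had 2406 and 2839 normalised reads in the knockdown libraries, against 3391 and 3494 in the control libraries. NDUFC2 had 4691 and 6029 in the knockdown libraries, against 6335 and 7341 in the control libraries. Neither row had groups that overlapped, but the shallower knockdown library of NDUFC2 was close to the deeper control library. The log2 fold changes in the authors' deposited table were -0.39 for NDUFC2-KCTD14 (adjusted p = 0.416) and -0.35 for NDUFC2 (adjusted p = 0.612). With limma NDUFC2 was at -0.36, and at -0.18 without the deeper knockdown library. The authors' counter is not given in the sources used here, so the readthrough row cannot be told apart from reads of NDUFC2, and the pair should be read as 1 observation.

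NDUFA7, an accessory subunit of the N module, completes the 5 members with the smallest adjusted p. It had 1782 and 2229 normalised reads in the knockdown libraries, against 2612 and 2580 in the control libraries. The control libraries were nearly equal and both knockdown libraries lay below them. The log2 fold change in the authors' deposited table was -0.37, with an adjusted p of 0.562. The limma value of NDUFA7 was -0.38, and -0.22 without the deeper knockdown library. A second row, CTD-2550O8.5, shares 456 exonic bases on the same strand and had a mean 98.0% of that of NDUFA7, so these rows may hold many of the same reads.

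**Figure D2:**
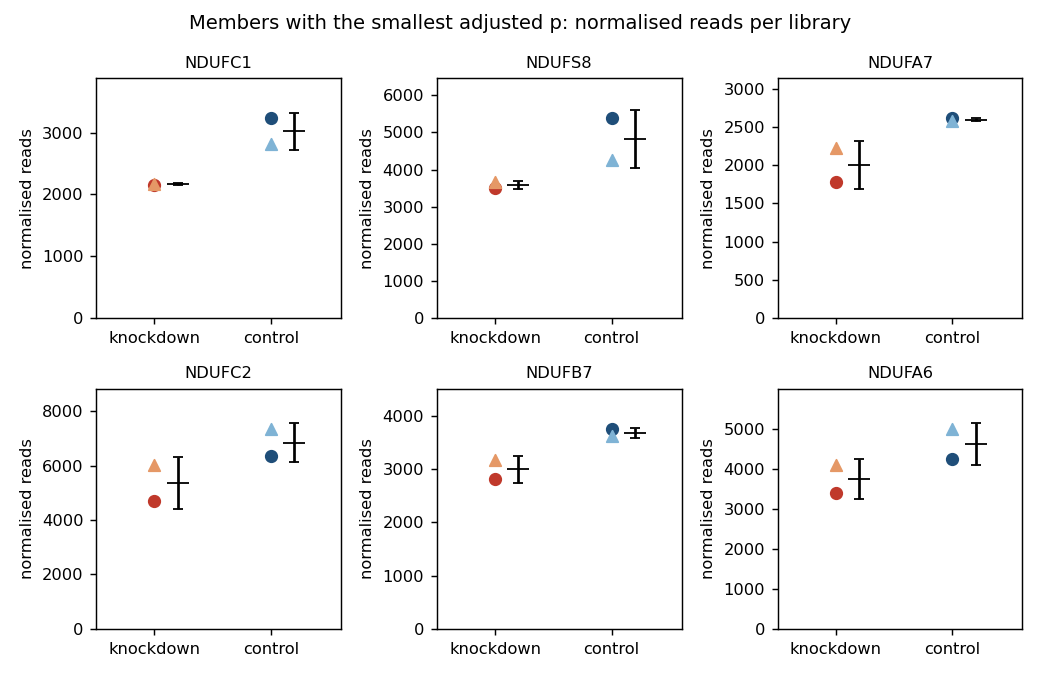
Normalised reads per library (y axis, from 0) of the 6 members with the smallest adjusted p, the readthrough row left out, with knockdown on the left and control on the right of each panel. Circles are the deeper and triangles the shallower library of a group, and black bars the mean ± SD (n = 2); the knockdown points lie below the control points in all 6 panels, with a difference of the means of -28.3% for NDUFC1.

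Among the subunits of the N module, 9 of 10 had a log2 fold change below 0, with a median of -0.18, and both knockdown libraries were below both controls for 6 of 10, against 22.6% of all recovered genes. NDUFV1, which binds NADH and the flavin, had 8502 and 8085 normalised reads in the knockdown libraries, against 9517 and 9355 in the control libraries. The groups did not overlap, and the log2 fold change in the authors' deposited table was -0.19 (adjusted p = 0.852). NDUFS1, the iron-sulphur subunit with the most clusters, had 5827 and 5395 in the knockdown libraries, against 5914 and 6207 in the control libraries. Its knockdown values stood just under the controls, and its log2 fold change in the authors' deposited table was -0.11 (adjusted p = 0.943). NDUFV2, an iron-sulphur core subunit, had 7749 and 6715 in the knockdown libraries, against 7083 and 8484 in the control libraries, and the groups overlapped. Its log2 fold change in the authors' deposited table was -0.11 (adjusted p = 0.958). NDUFS6, a zinc-binding accessory subunit, was the exception in sign, with a log2 fold change of 0.12 in the authors' deposited table (adjusted p = 0.951). It had 3403 and 4281 in the knockdown libraries, against 3446 and 3632 in the control libraries, and only the shallower knockdown library was high. In limma fits NDUFS6 turned to -0.056 without that library, and NDUFV2 to 0.026 without the shallower control library.

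The Q module had 5 of 6 members below 0 and a median of -0.13, and the groups were apart on the low side for 1 of its 5 recovered members, NDUFS8, a share near the 22.6% of all recovered genes. NDUFS3, a core subunit of the same arm, had 4702 and 4084 in the knockdown libraries, against 5026 and 4683 in the control libraries, with a log2 fold change of -0.14 in the authors' deposited table (adjusted p = 0.921). Its deeper knockdown library lay just above the shallower control. NDUFS7, which holds the cluster that hands electrons to the quinone, had 2874 and 2262 in the knockdown libraries, against 3190 and 2596 in the control libraries. The shallower library was the lower one in both groups, and the log2 fold change in the authors' deposited table was -0.17 (adjusted p = 0.921). NDUFA5 was too abundant to be resolved by library; its log2 fold change in the authors' deposited table was -0.10, with an adjusted p of 0.965.

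In the proximal membrane arm 7 of 9 members were below 0, with a median of -0.19, and this arm held both the lowest member, NDUFC1, and the highest, NDUFA8. NDUFA8, an accessory subunit with paired cysteine motifs, had 1996 and 2710 normalised reads in the knockdown libraries, against 2075 and 1853 in the control libraries. The shallower knockdown library alone was high, and the groups overlapped. The log2 fold change in the authors' deposited table was 0.26, with an adjusted p of 0.839. With limma the NDUFA8 value was 0.25, and 0.026 without the shallower knockdown library. NDUFA10, which resembles nucleoside kinases, had 4132 and 3746 in the knockdown libraries, against 3782 and 3667 in the control libraries, with overlapping groups and a log2 fold change of 0.08 in the authors' deposited table (adjusted p = 0.967). NDUFA3, an accessory subunit of this arm, had 1257 and 1917 in the knockdown libraries, against 1947 and 1849 in the control libraries. Its deeper knockdown library alone was low, the log2 fold change in the authors' deposited table was -0.26 (adjusted p = 0.868), and with limma it was 0.015 without that library. NDUFA1, of the same arm, was at -0.19 in the authors' deposited table and at 0.028 with limma without the shallower control library.

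All 11 members of the distal membrane arm, the NDUFB subunits, had a log2 fold change below 0, between -0.31 and -0.04, with a median of -0.15. The groups were apart on the low side for 7 of 11, against 22.6% of all recovered genes. In limma fits that left out 1 library, NDUFB1 turned to 0.067 and NDUFB3 to 0.11 without the shallower control library, and NDUFB2 to 0.0073 without the shallower knockdown library. NDUFB7, an accessory subunit on the intermembrane-space side, had 2811 and 3179 normalised reads in the knockdown libraries, against 3754 and 3621 in the control libraries. Its groups did not overlap, and its log2 fold change in the authors' deposited table was -0.30 (adjusted p = 0.647). NDUFB3 was closest to 0, with 2002 and 2052 in the knockdown libraries, against 1882 and 2274 in the control libraries, and in the authors' deposited table its adjusted p was 0.991. Over the 7 core subunits of both peripheral modules the median was -0.14, against -0.17 over the 29 accessory ones outside the readthrough row and the NDUFA4 pair, a difference that was not tested.

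NDUFA4 and its paralogue NDUFA4L2, whose expression rises in hypoxia in many cells, differed widely in level. NDUFA4 had 6999 and 5857 normalised reads in the knockdown libraries, against 7180 and 7439 in the control libraries, and the groups did not overlap. NDUFA4L2 had 15.6 and 19.7 in the knockdown libraries, against 27.6 and 15.3 in the control libraries. Its mean of 19.5 lay under the lowest tested mean of 25.7 and it has no adjusted p; MIR210HG, the host transcript of the hypoxia-linked miR-210, was listed in the authors' deposited table with a mean of 26.4 and an adjusted p of 0.912.

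**Figure D3:**
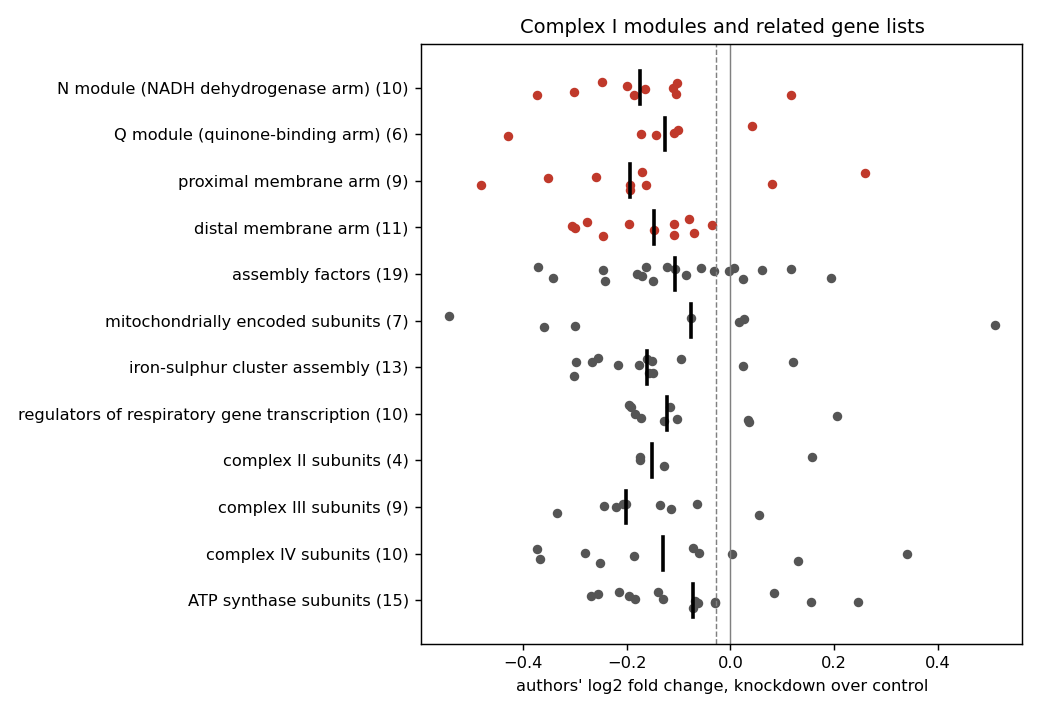
The authors' log2 fold change, knockdown over control (x axis), of each tested gene in the 4 complex I modules (red) and in related gene lists (grey), with the number of tested genes in brackets and the list median as a black bar. The dashed line is the median of all tested genes, -0.03; list medians run from -0.20 for complex III to -0.07 for the ATP synthase.

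Related genes were read from lists of pathway members. Of 88 tested genes in these lists, 0 had an adjusted p under 0.05 in the authors' deposited table, against 0.351% of all tested genes, 7 had an unadjusted p under 0.05, against 6.8%, and limma called 0 of the 70 recovered ones, against 0.244%, with 6 at an unadjusted p under 0.05, against 10.0%. Their median log2 fold change was -0.13, with 66 of 88 below 0. The side below 0 was thus shared by other respiratory chain genes. Both knockdown libraries were below both controls for 29 of the 70 recovered genes and above for 5, against 22.6% and 19.0% of all recovered genes. They were below for 5 of 6 in complex III, 2 of 4 in complex II, 3 of 8 in complex IV and 2 of 8 in the ATP synthase. For iron-sulphur cluster assembly it was 9 of 12 and for assembly factors 5 of 19. The median of the authors' log2 fold changes was -0.20 for complex III, -0.15 for complex II, -0.13 for complex IV and -0.07 for the ATP synthase.

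Among the 19 factors that assemble complex I, 14 were below 0, with a median of -0.11. The lowest were in the authors' deposited table TMEM261 (DMAC1), at -0.37 (adjusted p = 0.532), and NUBPL, which delivers iron-sulphur clusters to the complex, at -0.34 (adjusted p = 0.805). The highest in the authors' deposited table were TMEM186, at 0.19, and ACAD9, at 0.12. NDUFAB1, the acyl carrier subunit that lies outside the symbol rule, had a log2 fold change of 0.10 in the authors' deposited table (adjusted p = 0.966). Of 13 genes for iron-sulphur cluster assembly 11 were below 0, with a median of -0.16, and the lowest in the authors' deposited table were ISCA1 and HSCB, at -0.30 each.

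The 7 subunits encoded in the mitochondrial genome spread more widely, with a median of -0.08. MT-ND5 had the lowest log2 fold change, -0.54 (adjusted p = 0.202), and MT-ND4L had -0.36 (adjusted p = 0.786) in the authors' deposited table. MT-ND3 had the highest value in the authors' deposited table, 0.51 (adjusted p = 0.929), followed by MT-ND6 at 0.03. Only MT-ND2 and MT-ND6 could be resolved by library, and MT-ND2 had 6794 and 10653 normalised reads in the knockdown libraries, against 9679 and 8704 in the control libraries. The knockdown libraries lay on both sides of the controls.

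In the other complexes, COX6B1 and COX5B of complex IV had log2 fold changes of -0.37 each (adjusted p = 0.321 and 0.585), and COX5A had 0.34 (adjusted p = 0.654) and COX4I1 0.13 (adjusted p = 0.921) in the authors' deposited table. COX5B was called by limma without the deeper knockdown library, at an adjusted p of 0.0378, in a fit that called 120 of all recovered genes, against 33 with all 4 libraries. For complex III the log2 fold changes in the authors' deposited table ran from UQCR10 at -0.33 and CYC1 at -0.24 to UQCRH at -0.07 and UQCRC2 at 0.05. In complex II, the authors' deposited table gave SDHD and SDHB log2 fold changes of -0.18 and -0.17, SDHA -0.13 and SDHC 0.16. For the ATP synthase, ATP5F1 and ATP5C1 were lowest in the authors' deposited table, at -0.27 and -0.25, and ATP5J and ATP5B the highest, at 0.16 and 0.25.

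Transcription of many subunits is known to depend on NRF1 and GABP, and YY1 has also been tied to respiratory genes. Of 10 tested regulators, 7 were below 0, with a median of -0.12. PPARGC1B and TFAM were lowest, at -0.20 and -0.19, while TFB2M and NRF1 were highest, at 0.04 and 0.21 in the authors' deposited table. NRF1 had 1074 and 1004 normalised reads in the knockdown libraries, against 940 and 862 in the control libraries, and its adjusted p was 0.886. PPARGC1A was not tested, at a mean of 0.272 normalised reads.

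RefSeq promoter sequences, from 250 bases before to 50 after the start site, were matched for 32 members. The NRF1 motif CGCATGCG, the same on both strands, lay in promoters of 5 of them, or 15.6%, against 4.81% of tested protein-coding genes. It lay in 2.02% of all single promoters. For each motif, members and tested genes counted once if any of their promoters held it, while the share of all promoters is per promoter. The 5 NRF1 sites are shown in windows of 30 bases because they include the 2 members with the highest fold changes. Capitals mark the motif. Positions are on GRCh38.p14 and each window is written 5′ to 3′ on the strand of its gene.
NDUFA8 (chr9:122159764-122159793, minus strand): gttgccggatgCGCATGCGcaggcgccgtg
NDUFS6 (chr5:1801351-1801380, plus strand): cagaagccgtgCGCATGCGttagcgctaag
NDUFA5 (chr7:123557957-123557986, minus strand): tatgcccatcgCGCATGCGtcaatttttct
NDUFS7 (chr19:1383822-1383851, plus strand): gttccggtttcCGCATGCGctccgagccgc
NDUFB4 (chr3:120596167-120596196, plus strand): agagcacttcgCGCATGCGcatatcaccga
The motif starts 3 bases before the start site of NDUFA8, 45 before that of NDUFS6, 74 before that of NDUFS7, 157 before that of NDUFA5 and 158 before that of NDUFB4. The log2 fold changes of these 5 members had a median of -0.10 and ran from -0.25 for NDUFB4 to 0.26 for NDUFA8. The 27 members without the motif had a median of -0.19, a difference that was not tested. With limma, NDUFA8 was at 0.026 and NDUFS6 at -0.056 without the shallower knockdown library.

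The GABP motif CCGGAAG, or CTTCCGG on the other strand, lay in the promoters of 5 members (NDUFA1, NDUFA13, NDUFB7, NDUFS1 and NDUFS3), or 15.6%, against 24.2% of tested protein-coding genes and 10.3% of all promoters. The YY1 motif AAGATGGCG, or CGCCATCTT on the other strand, lay in 6 (NDUFA6, NDUFA7, NDUFA9, NDUFB8, NDUFS4 and NDUFS7), or 18.8%, against 5.22% and 1.75%. All 6 began between 10 and 25 bases after the start site, and the letters contain ATG, so they may include a start codon, which was not tested. The TATA motif TATAAA, or TTTATA, lay in 3 (NDUFA2, NDUFA7 and NDUFA9), or 9.38%, against 7.62% and 11.5%. The median log2 fold change was -0.17 for the members with the GABP motif, -0.19 with the YY1 motif and -0.11 with the TATA motif. Over the matched members without the motif it was -0.17 for each of these 3 motifs. These differences were not tested either.

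Most members have short transcripts, and short transcripts tended to have lower fold changes across the whole table. Below 1000 bases of principal transcript, the median log2 fold change was -0.17 over 21 members, against -0.14 over 673 tested protein-coding genes. Between 1000 and 2000 bases it was -0.20 over 9 members, against -0.08 over 2251 genes. Between 2000 and 4000 bases it was -0.19 over 4 members, against -0.04 over 4438 genes, and from 4000 bases on -0.11 over 4 members, against -0.0043 over 4022. Members lay lower than the protein-coding genes in each length class, by least in the shortest class, which holds most of them. Spearman's rho between fold change and length was 0.17 over 11384 tested protein-coding genes and 0.11 over 37 members outside the readthrough row, a description across genes that share the libraries. Over the 5708 protein-coding genes within the members' range of means the median was -0.05. The part of transcript length in the members' values was not tested.

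**Figure D4:**
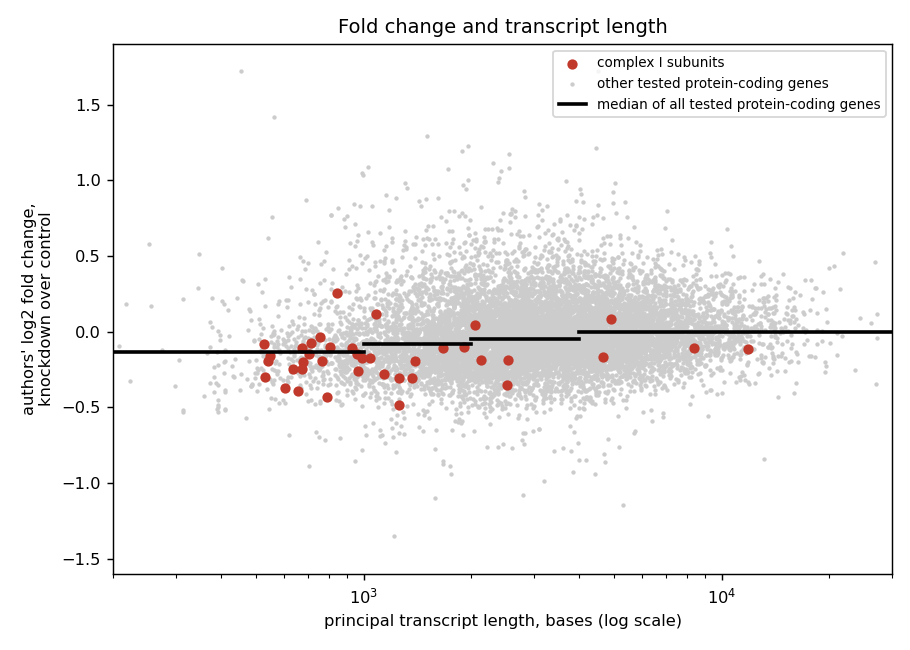
The authors' log2 fold change, knockdown over control (y axis), against the length of the principal transcript (x axis, log scale) for the tested complex I members (red) and the other tested protein-coding genes (grey). Black bars are medians of all tested protein-coding genes in 4 length classes, from -0.14 below 1000 bases to -0.0043 from 4000 bases on; most members lie below 2000 bases.

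Per kilobase of principal transcript, the members spanned a wide range of levels. NDUFS5, an accessory subunit of the proximal arm, had the highest mean, 17405 normalised reads per kilobase, followed by NDUFB9 at 9751, NDUFV2 at 8073, NDUFA11 at 7629 and NDUFA1 at 7016. The lowest were NDUFA4L2 at 16.5, NDUFA9 at 405, NDUFS1 at 494, NDUFA10 at 780 and NDUFB6 at 844. NDUFS1 and NDUFA9 have principal transcripts of 11819 and 8363 bases in GENCODE 29, so a shorter transcript in these cells would place them higher. NDUFS5 had 8429 and 9571 normalised reads in the knockdown libraries, against 9584 and 10568 in the control libraries, with the shallower knockdown library just under the deeper control.

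Some member rows share reads with other rows or could do so. For 9 members a row on the same strand with a mean of at least 1000 normalised reads shares exonic bases, the NDUFC2 pair and NDUFA7 among them. RP11-21J18.1 shares 771 bases with NDUFV2 and had a mean 97.3% of that of NDUFV2, and AC024592.12 shares 467 bases with NDUFA11 at 81.8%. PTPMT1, which shares 721 bases with NDUFS3, had a mean 53.8% of that of NDUFS3. For 10 members a row on the opposite strand with a mean of at least 1000 shares exonic bases, such as BRAF for NDUFB2. The kit keeps strand but the strand setting of the counter is not given in the sources used here. Of 54 pseudogene rows named after a member 12 had reads and 2 were tested, and the highest mean among them was 936 normalised reads.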

How the data were processed

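Total RNA of K562 cells (2 knockdown and 2 control libraries, TruSeq Stranded Total RNA, per the labels' protocols) was sequenced. Tools named in the submitters' processing notes are DESeq2 1.24.0, STAR 2.6.0a and Bowtie2 2.3.4.1, with the build hg38. The authors deposited 1 table with a mean normalised signal, an adjusted p-value and a log2 fold change for each gene, and 0 columns of single libraries. A further deposited log2 column, whose assay is not stated, was not used. The planned edgeR test needs counts, so the authors' adjusted p at 0.05 was the main test. The unadjusted p is exact for 655 genes and an upper limit otherwise.

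Whole reads per library were worked out from genes with a mean under 10000: a combination of 4 whole numbers had to return the deposited mean to its 15 digits and its fold change. The search also limited the scaled reads of a group's libraries to a ratio of about 2, with more room at low means. Genes whose libraries differed more within a group were therefore not recovered, and the shares over recovered genes leave them out. The group of a library follows the sign of the fold change of genes with a single read. Of 13618 genes searched, 13516 had exactly 1 match, 1 had several and 101 had none; recomputed and deposited log2 fold changes differed by 0.0335 at most. The search itself limits how far the recomputed and deposited fold changes can differ. Tested on data simulated from genes already recovered, the search returned 1 combination for 1998 of 2000 genes, the true one each time. This test does not cover genes unlike those recovered. Log2(normalised reads + 1) was compared with limma 3.58.1 (R 4.3.3), with Benjamini-Hochberg adjustment over these genes; Python 3.11.15 did the rest. These counts are an inference from the table and carry no count model.

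Coordinates are GENCODE 29 on GRCh38; levels per kilobase use the principal transcript. Named genes were the 5 smallest adjusted p, the 5 extremes of fold change and of level, core subunits, the NDUFA4 pair, untested members and the 2 extremes of each list at either end; NDUFA3, NDUFB7 and the partner rows were added after their values were seen. Values of 1 member and 1 list gene are not reported here; both remain in the counts and medians. Members and lists were chosen with earlier results of these data known.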

Additional observations from a re-analysis of the deposited data

How the results depend on the processing

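The count of 0 called members held at adjusted p under 0.01 and under 0.1, with a log2 fold change of at least 1, with protein-coding genes adjusted again, with re-centred fold changes, with Bonferroni adjustment and in all limma fits. The limma fits were chosen after seeing the data. The median over members was -0.14 after re-centring, -0.17 without the readthrough row and -0.18 with limma, a pseudocount of 10 or a filter on means under 100. Leaving out each library gave medians from -0.22 to -0.13, the lone library being assumed to vary like the others. The smallest member adjusted p in those fits was 0.0590, without the shallower knockdown library. Among other lists the called genes ranged from 0 to 1: without the deeper knockdown library, COX5B had an adjusted p of 0.0378, in a fit that called 120 genes in all, against 33 with every library. In these fits 8 of the members reported singly turned sign. Lowest and highest values were -0.59 and 0.015 for NDUFA3, -0.23 and 0.014 for NDUFA2, -0.24 and 0.0073 for NDUFB2, and -0.056 and 0.27 for NDUFS6, which turned with a knockdown library left out. They were -0.39 and 0.028 for NDUFA1, -0.23 and 0.026 for NDUFV2, and -0.17 and 0.11 for NDUFB3, which turned without the shallower control library. NDUFB1 ran from -0.22 to 0.067 and was also above 0, at 0.012, without the deeper knockdown library. The causes were not tested. No paired analysis was possible because the libraries could not be tied to replicate numbers. TMM scaling, a fit with no filter, edgeR, DESeq2 and the replicate block were not run.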
